A study of Mus musculus with 16 samples.

Results

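Amh, Amhr2, Inha, Inhba, Inhbb, Fst, Fstl3 and Foxl2, the genes of the anti-Müllerian hormone and inhibin-activin-follistatin systems of the ovarian follicle, were followed in the ovaries of testosterone-treated mice. These 8 genes were taken by name from the 55426 genes of the deposited tables. All 8 were present, and all 8 were among the 18833 genes with enough counts to be tested.

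Anti-Müllerian hormone, encoded by Amh, is secreted by the granulosa cells of growing follicles and restrains the recruitment of resting follicles and the response of growing ones to follicle-stimulating hormone. It acts through its own type II receptor, encoded by Amhr2. Inhibins and activins share their beta subunits, encoded by Inhba and Inhbb: a dimer of beta subunits is an activin, and a beta subunit joined to the alpha subunit encoded by Inha is an inhibin. Activins raise and inhibins lower pituitary secretion of follicle-stimulating hormone, and both also act within the follicle. The secreted proteins encoded by Fst and Fstl3 bind activins and keep them from their receptors, and Foxl2 encodes a forkhead transcription factor that maintains the identity of granulosa cells.

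Ovaries came from female C57BL/6NHsd mice, an inbred strain. On T mice had received 0.9 mg of testosterone enanthate, a long-acting ester of testosterone, by weekly subcutaneous injection for 6 weeks from 9 to 10 weeks of age, and were killed at 16 weeks of age. Control for On T mice were injected with sesame oil, the vehicle, and were killed at the same age. Post T mice had the same 6 weeks of testosterone, were then left without it until estrous cycles returned, and were killed after 4 cycles, at 24 to 28 weeks of age. Control for Post T mice had received sesame oil and were killed at 24 to 28 weeks of age. All ovaries were taken in diestrus. Each group had 4 mice, with 1 ovary and 1 poly(A) RNA library per mouse. The Post T group differs from the On T group in age as well as in time since the last injection, so each was set against its own controls.

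The libraries held 29004008 to 52659637 expected counts in On T, 29816015 to 45836299 in Control for On T, 30359221 to 44292334 in Post T and 26598055 to 40442120 in Control for Post T. Markers of granulosa cells and of oocytes were present in every group, with summed TPM (a transcript level scaled for length and library size) of 1193 to 2793 for 10 granulosa genes and 152 to 370 for 11 oocyte genes. The 4 oviduct markers summed to 4.99 TPM or less in every library. The counts of markers below are of those that passed edgeR's quasi-likelihood test at a Benjamini-Hochberg adjusted p below 0.05. Of 9 luteal markers, 6 were lower in On T and 6 were lower in Post T than in their controls. Their summed level was 3748 to 6426 TPM in On T against 8701 to 10182 TPM in Control for On T, and 3958 to 7159 TPM in Post T against 7312 to 11739 TPM in Control for Post T. Hsd3b1, the largest part by mean, did not pass, at 3727 TPM in On T against 4264 TPM in Control for On T. In Post T it was at 3550 TPM against 4308 TPM. The falls were largest in Akr1c18, Ptgfr and Sfrp4, at means of 0.9, 1.2 and 5.1 TPM in On T against 199, 113 and 1025 TPM. In Post T these were at 0.295, 1.18 and 22.8 TPM against 194, 148 and 1068 TPM. Of 8 macrophage markers, 4 were higher in On T (summed 296 to 560 TPM, against 224 to 313 TPM in controls) and 6 were higher in Post T (1731 to 2394 TPM, against 338 to 583 TPM). Of 5 theca markers, 0 passed in On T and 2 were higher in Post T, Insl3 and Aldh1a1. The 5 summed to 2557 to 4017 TPM in Post T against 1158 to 1912 TPM in Control for Post T. Most of these sums was Aldh1a1, at a mean of 2819 TPM against 1337 TPM. In Post T, Cyp17a1 was higher (log2 1.79) and Ptch1 (-0.13) and Hhip (-0.43) were lower, and these did not pass. Of 5 stroma markers, 3 were higher and 1 lower in On T (460 to 955 TPM, against 415 to 514 TPM), and 1 was higher in Post T. Of 4 smooth muscle markers, 2 were higher in On T (1072 to 2185 TPM, against 887 to 1003 TPM) and 0 passed in Post T. Of the 10 granulosa genes 1 was higher in Post T and of the 11 oocyte genes 1 in On T, while 0 of 8 surface epithelium markers passed in either comparison. Beside these counts, 4.24% of all tested genes were called higher and 5.03% lower in On T. In Post T, 7.49% were called higher and 4.81% lower. The luteal, theca and smooth muscle sums named here did not overlap between the groups compared, nor did those of macrophages in Post T. In whole ovaries, fewer cells of a type and less RNA per cell cannot be told apart. The part of these marker shifts in the results below was not tested.

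Of the 8 genes, Fstl3 alone passed the test in On T ovaries, at 0.557 times its control level. That is 1 of 8 genes, beside 9.27% of all 18833 tested genes called in the same comparison (edgeR's quasi-likelihood test, Benjamini-Hochberg adjusted p below 0.05). After testosterone had been stopped, 0 of 8 passed in the edgeR test, in which 12.3% of all tested genes were called. Amhr2 came nearest, at 1.32 times its control level with adjusted p = 0.054. At an unadjusted p below 0.05 the counts were 2 of 8 in On T (Amh and Fstl3), where 22.3% of all tested genes reached it, and 1 of 8 in Post T (Amhr2), where 22.9% did. DESeq2 called 1 gene in each comparison, beside 12.5% of all genes in On T and 14.9% in Post T. Limma called 1 in On T, beside 6.00% of all genes, and 0 in Post T, beside 9.88%. The median log2 fold change of the 8 genes was 0.16 in On T and 0.054 in Post T, against -0.0052 and -0.010 over all tested genes.

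**Figure D1:**
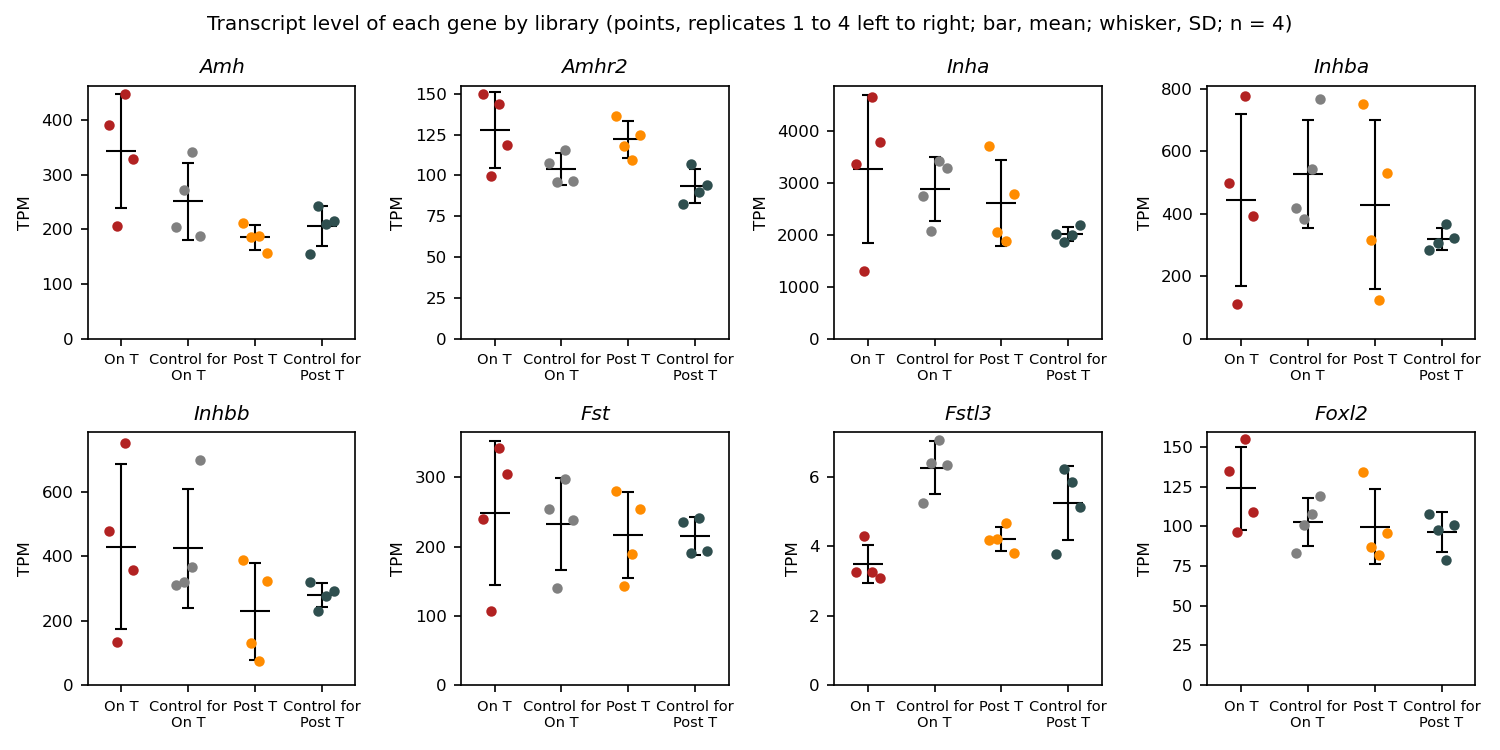
Level of each of the 8 genes in TPM, by group; points are libraries, bars means and whiskers SD (n = 4). Fstl3 in On T lies between 3.08 and 4.29 TPM, below every Control for On T library (5.24 to 7.07 TPM). Inhba and Inhbb spread most widely in On T and Post T.

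Amh, the first of the ligands, lies on the plus strand of chromosome 10 (GRCm38, 80805243 to 80807648). It was found at 392, 206, 448 and 328 TPM in On T libraries 1 to 4, against 204, 272, 341 and 188 TPM in Control for On T libraries 1 to 4. Libraries 1 and 3 of On T stood above every control, and library 2 lay among the lowest, so the groups overlapped. The log2 fold change was 0.46 (SE 0.21, 95% interval 0.0063 to 0.92, edgeR adjusted p = 0.217). Leaving out On T library 2 gave 0.65 (edgeR adjusted p = 0.0362), which passed. In Post T, Amh was at 211, 186, 188 and 156 TPM, against 156, 244, 211 and 215 TPM in Control for Post T. These groups overlapped over nearly their whole ranges, with a log2 fold change of -0.10 (SE 0.21, 95% interval -0.56 to 0.35, edgeR adjusted p = 0.845). The Post T effect minus the On T effect was -0.57 (SE 0.30, edgeR adjusted p = 0.431).

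Amhr2, the receptor through which anti-Müllerian hormone signals, lies on the plus strand of chromosome 15 (102445367 to 102454633). Its RefSeq promoter is shown because this gene came nearest to a call after testosterone. The window chr15:102445117-102445416 (GRCm38.p6, plus strand) runs from 250 bases before the start site to 50 bases after it, and capitals mark the only match to the motifs searched, CAAGGTCA, the site of the orphan receptor NR5A1.
Amhr2: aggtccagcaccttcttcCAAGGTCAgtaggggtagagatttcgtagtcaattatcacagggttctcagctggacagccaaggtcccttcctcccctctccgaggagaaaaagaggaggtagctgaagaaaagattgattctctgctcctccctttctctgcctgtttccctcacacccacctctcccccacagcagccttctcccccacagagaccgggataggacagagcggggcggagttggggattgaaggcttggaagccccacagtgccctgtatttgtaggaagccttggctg
That motif stands 232 bases upstream of the start site on the plus strand, and 1.56% of 32851 mouse promoters of the same length hold it on either strand. RefSeq promoters were given for 6 of the 8 genes (Amhr2, Inha, Inhba, Inhbb, Fstl3 and Foxl2), and CAAGGTCA was in 1 of the 6.

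In Post T the level of Amhr2 stood at 136, 118, 109 and 125 TPM, against 82.4, 107, 89.8 and 94.0 TPM in Control for Post T. Every Post T library lay above every control, a separation seen in 14.7% of all tested genes in this comparison. The lowest Post T library, 109.31 TPM, and the highest control, 107.05 TPM, nearly met. The log2 fold change was 0.40 (SE 0.13, 95% interval 0.13 to 0.68, edgeR adjusted p = 0.054), so it did not pass. It did pass with only the 8 Post T and control libraries fitted (log2 0.40, edgeR adjusted p = 0.0145) and in DESeq2 (log2 0.40, adjusted p = 0.0297), and over 26 alternatives its adjusted p ran from 0.011 to 0.128.

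In On T, Amhr2 was at 150, 99.6, 144 and 118 TPM, against 108, 96.1, 116 and 96.4 TPM in Control for On T. Libraries 1, 3 and 4 lay above every control, and library 2 lay among the controls. The log2 fold change was 0.27 (SE 0.13, 95% interval -0.0012 to 0.55, edgeR adjusted p = 0.227). It reached 0.40 and passed when On T library 2 was left out (edgeR adjusted p = 0.0276). The Post T and On T effects on Amhr2 differed by 0.13 (95% interval -0.26 to 0.52, edgeR adjusted p = 0.82).

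Inha, encoding the alpha subunit that makes a dimer an inhibin, lies on the plus strand of chromosome 1 (75507077 to 75510366). Of the 8 genes it had the highest level and ranked 41 among all 55426 genes of the deposited tables by mean TPM. On T libraries 1 to 4 held 3357, 1294, 4646 and 3776 TPM, against 2734, 2066, 3425 and 3281 TPM in Control for On T. Library 2 was lower than any control, while libraries 3 and 4 were higher than all of them. Inha had a log2 fold change of 0.19 (SE 0.29, 95% interval -0.43 to 0.82, edgeR adjusted p = 0.756). Without On T library 3 it was -0.011. Post T libraries held 3705, 2044, 1886 and 2779 TPM, against 2018, 1856, 1990 and 2192 TPM in Control for Post T, with libraries 1 and 4 of Post T above every control (log2 0.39, SE 0.29, 95% interval -0.23 to 1.02, edgeR adjusted p = 0.49).

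Inhba encodes the beta A subunit found in activin A and inhibin A, and lies on the plus strand of chromosome 13 (16011851 to 16031621). Its level was 498, 112, 776 and 392 TPM in On T, against 417, 384, 544 and 767 TPM in Control for On T. The groups overlapped, with On T library 2 at less than any control and library 3 just above the highest control. The log2 fold change was -0.27 (SE 0.43, 95% interval -1.19 to 0.65, edgeR adjusted p = 0.768), and it was 0.038 without On T library 2. Post T libraries held 751, 315, 122 and 530 TPM, against 282, 307, 366 and 322 TPM in Control for Post T. Libraries 1 and 4 of Post T exceeded every control, and library 3 was below all of them (log2 0.47, SE 0.43, 95% interval -0.45 to 1.39, edgeR adjusted p = 0.601).

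Inhbb, encoding the beta B subunit of activin B and inhibin B, lies on the minus strand of chromosome 1 (119415465 to 119422248). On T libraries held 477, 134, 750 and 356 TPM, against 312, 319, 368 and 698 TPM in Control for On T. Both groups had an unlike library, On T library 2 on the low side and control library 4 on the high side. For Inhbb the log2 fold change came to 0.041 (SE 0.47, 95% interval -0.96 to 1.04, edgeR adjusted p = 0.973), and it was -0.14 in limma on log2(TPM + 1). It ran from -0.36 without On T library 3 to 0.38 without On T library 2. Post T libraries held 388, 131, 74.4 and 321 TPM, against 320, 231, 275 and 292 TPM in Control for Post T. Libraries 2 and 3 of Post T were below every control and libraries 1 and 4 were above every control (log2 -0.29, SE 0.47, 95% interval -1.29 to 0.71, edgeR adjusted p = 0.795).

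Across both comparisons the intervals of the 3 subunit genes reached from -1.29 to 1.39 on the log2 scale, so their missed thresholds do not show equal levels. The coefficient of variation of TPM for Inhba was 61.8% in On T against 32.9% in Control for On T, and 63.2% in Post T against 11.0% in Control for Post T. For Inhbb it was 59.7% in On T against 43.5% in Control for On T, and 65.6% in Post T against 13.4% in Control for Post T. The highest Post T library was at 5.22 times the lowest for Inhbb, against 1.39 times in Control for Post T. Gene-wise biological variation, estimated by edgeR within groups, was 0.457 for Inhbb and 0.419 for Inhba, which placed them at the 96.9 and 95.9 percentiles of all tested genes, the median being 0.159. It was 0.308 for Fst, 0.289 for Inha, 0.214 for Amh, 0.178 for Foxl2, 0.149 for Fstl3 and 0.135 for Amhr2. Differences in spread between groups were not tested.

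**Figure D2:**
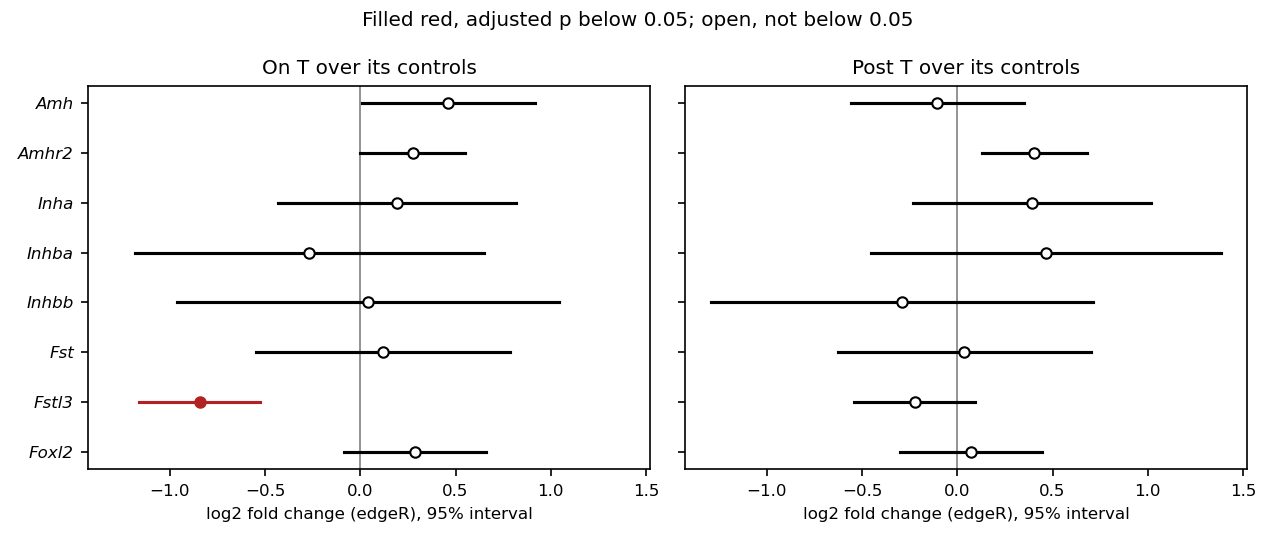
Log2 fold change of each gene from edgeR with its 95% interval, On T over Control for On T on the left and Post T over Control for Post T on the right; the filled red point passed an adjusted p of 0.05. Fstl3 in On T (-0.84) is the only filled point, and the intervals of Inhba and Inhbb are the widest.

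Fst encodes follistatin, which binds activins very tightly, and lies on the minus strand of chromosome 13 (114452290 to 114458951). On T libraries held 240, 107, 343 and 305 TPM, against 255, 140, 297 and 239 TPM in Control for On T. Post T libraries held 280, 142, 190 and 254 TPM, against 235, 190, 242 and 194 TPM in Control for Post T. Both pairs of groups overlapped. The log2 fold changes were 0.12 in On T (SE 0.31, 95% interval -0.55 to 0.78, edgeR adjusted p = 0.867) and 0.036 in Post T (SE 0.31, 95% interval -0.63 to 0.70, edgeR adjusted p = 0.97). The second of these took a minus sign in limma (-0.031).

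Fstl3 encodes a shorter relative of follistatin that also binds activins and lies on the plus strand of chromosome 10 (79777272 to 79782630). Its promoter is shown because it was the gene called in On T. The RefSeq window chr10:79777024-79777323 (GRCm38.p6, plus strand) is given with 2 motif matches in capitals, both read on the minus strand.
Fstl3: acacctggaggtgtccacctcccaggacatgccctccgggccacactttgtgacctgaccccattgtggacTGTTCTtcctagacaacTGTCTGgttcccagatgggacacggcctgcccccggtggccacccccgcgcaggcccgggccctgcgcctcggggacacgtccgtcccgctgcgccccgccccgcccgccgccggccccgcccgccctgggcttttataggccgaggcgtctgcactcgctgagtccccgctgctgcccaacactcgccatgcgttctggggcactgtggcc
The first match is AGAACA, a hexamer of the androgen response element, 179 bases upstream of the start site, and the second is CAGACA, a SMAD-binding motif, 162 bases upstream. AGAACA occurs in 19% and CAGACA in 21% of the 32851 promoters, so neither is rare. AGAACA was also found 34 bases past the start of Inhbb, which makes 2 of the 6 promoters. The other motifs searched on both strands were in 0 of the 6 promoters. They were AGATAA, bound by the GATA family and held by 11.2% of all promoters, TAAACA, bound by forkhead factors and held by 13.4%, and TGACGTCA, the cyclic AMP response element, held by 1.79%. A match of letters is a description of these windows only.

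In On T libraries Fstl3 was at 3.27, 4.29, 3.27 and 3.08 TPM, against 5.24, 6.41, 7.07 and 6.34 TPM in Control for On T. Every On T library lay below every control, and 13.7% of all tested genes had groups that did not overlap in this comparison. The expected counts behind these levels were 132 to 216 in On T and 232 to 343 in Control for On T, the lowest range of the 8 genes. Fstl3 fell by 0.84 on the log2 scale (SE 0.15, 95% interval -1.16 to -0.53, edgeR adjusted p = 0.00179). It passed under every one of 26 alternatives, with adjusted p between 1.48e-06 and 0.0127. Of its exon bases, 47.3% are shared with Prss57 on the opposite strand. Over the 16 libraries Prss57 had 42 counts and Fstl3 had 3485, and whether strand was used in counting is not given in the sources used here.

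After testosterone was stopped, Fstl3 was at 4.18, 4.20, 4.66 and 3.80 TPM in Post T, against 3.79, 6.22, 5.86 and 5.14 TPM in Control for Post T. Library 1 of the controls was as low as the lowest Post T library, so the groups overlapped. The log2 fold change was -0.22 (SE 0.15, 95% interval -0.54 to 0.094, edgeR adjusted p = 0.428). The Post T effect minus the On T effect was 0.62 (SE 0.21, 95% interval 0.17 to 1.07, edgeR adjusted p = 0.154), so the 2 effects were not shown to differ.

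Foxl2 lies on the plus strand of chromosome 9 (98955288 to 98958543). On T libraries held 135, 96.2, 155 and 109 TPM, against 83.2, 101, 107 and 119 TPM in Control for On T, with libraries 1 and 3 of On T above every control. Post T libraries held 134, 87.1, 82.0 and 95.5 TPM, against 108, 97.8, 78.6 and 101 TPM in Control for Post T. The log2 fold changes were 0.29 in On T (SE 0.18, 95% interval -0.086 to 0.66, edgeR adjusted p = 0.369) and 0.072 in Post T (SE 0.18, 95% interval -0.30 to 0.44, edgeR adjusted p = 0.874). Foxl2 shares 0.369% of its exon bases with Foxl2os, a transcript of the opposite strand.

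In the difference of the 2 effects, 0 of the 8 genes passed in edgeR, 1 had an unadjusted p below 0.05 (Fstl3), and DESeq2 and limma called 0. Among all tested genes 3.25% were called there by edgeR, 14.3% had an unadjusted p below 0.05, and DESeq2 called 5.30% and limma 3.10%. Between the control groups, with Control for Post T set over Control for On T, edgeR called 0 of the 8 genes and 0.00% of all tested genes, 0 of the 8 had an unadjusted p below 0.05 (10.0% of all tested genes), and DESeq2 and limma called 0 (0.919% and 0.00% of all). All 8 log2 differences there were negative, from -0.65 for Inhba (SE 0.44, edgeR adjusted p = 0.657) to -0.060 for Foxl2. Inhba was at 282 to 366 TPM in Control for Post T and 384 to 767 TPM in Control for On T without overlap, as were 4.53% of all tested genes. The older and younger controls were killed at different ages, so any difference in their collection cannot be told apart from age.

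Ratios of TPM within a library set the 2 beta subunits against each other in the same ovary. Inhba stood at 1.93, 2.41, 1.64 and 1.65 times Inhbb in Post T libraries 1 to 4, against 0.882, 1.33, 1.33 and 1.10 times in Control for Post T. The groups did not overlap, so transcripts of the beta A subunit outweighed those of beta B in every Post T ovary by more than in any control. In On T the ratio was 1.04, 0.832, 1.04 and 1.10, against 1.34, 1.20, 1.48 and 1.10 in Control for On T, and the groups touched at 1.10. On the CPM scale the log2 ratio was -0.23 to -0.13 in On T against -0.088 to 0.39 in Control for On T, without overlap. Thus the ratio lay on the high side of controls in Post T and mostly on the low side in On T. These ratios carry no test, and how often ratios of other genes separate in this way was not computed. Among single tested genes, 14.7% did not overlap in TPM between Post T and its controls.

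The ratio of Inhbb to Inha was 0.105, 0.0639, 0.0395 and 0.116 in Post T, against 0.159, 0.124, 0.138 and 0.133 in Control for Post T, again without overlap. In On T it was 0.0944 to 0.161, against 0.107 to 0.213 in Control for On T. Inhba to Inha gave 0.0649 to 0.203 in Post T against 0.140 to 0.184 in Control for Post T, and 0.0864 to 0.167 in On T against 0.152 to 0.234 in Control for On T. These overlapped. Fst relative to Inhba plus Inhbb was 0.225 to 0.433 in On T against 0.163 to 0.350 in Control for On T, and 0.246 to 0.965 in Post T against 0.315 to 0.390 in Control for Post T. The highest of these, 0.965, came from Post T library 3, which had the lowest level of both beta subunits within Post T. Amh to Inha was 0.0870 to 0.159 in On T against 0.0572 to 0.132 in Control for On T, and 0.0562 to 0.0997 in Post T against 0.0772 to 0.131 in Control for Post T, with overlap in both.

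A ratio of Amhr2 to Amh, receptor to ligand, was added after the values were seen. It was 0.645, 0.636, 0.581 and 0.798 in Post T, against 0.529, 0.439, 0.426 and 0.437 in Control for Post T, without overlap. In On T it was 0.382, 0.483, 0.321 and 0.360, against 0.527, 0.353, 0.339 and 0.514 in Control for On T, with overlap. Since it was picked for its values it is a description.

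**Figure D3:**
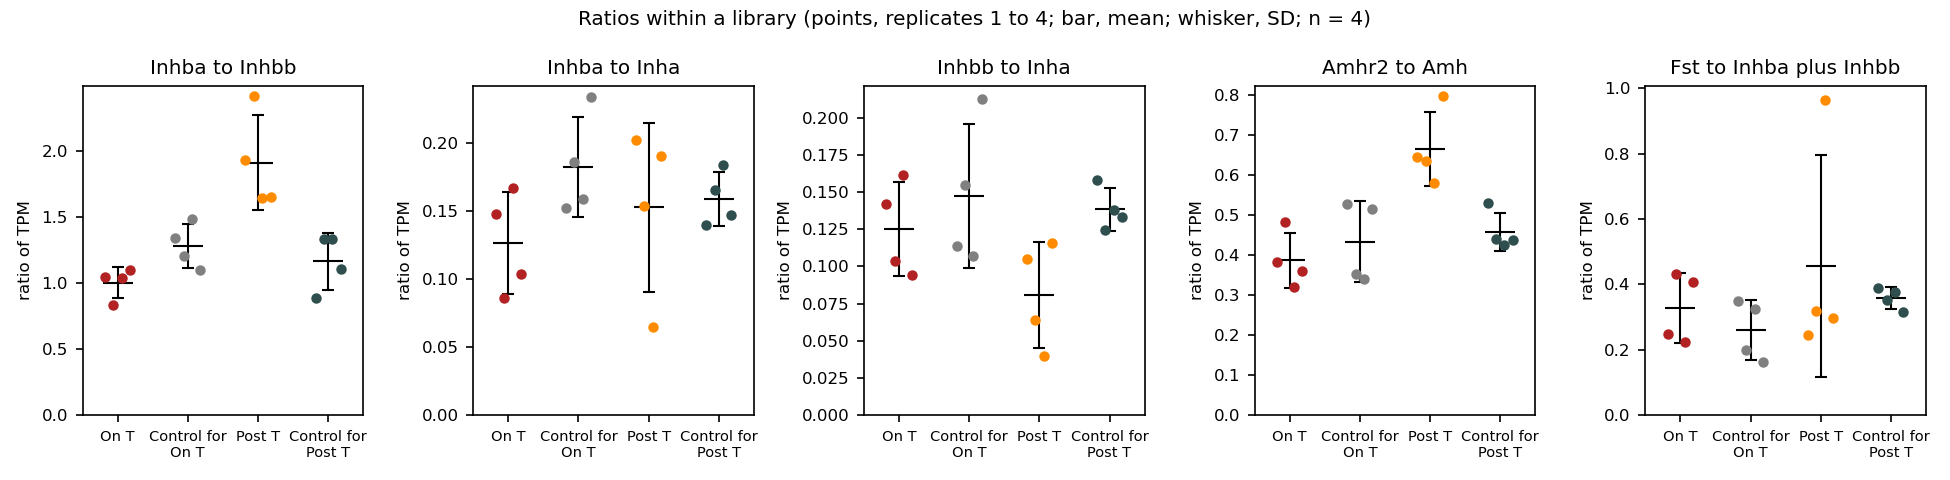
Ratios of TPM between genes of the same library, with the mean and SD of each group (n = 4). Post T does not overlap its controls in Inhba to Inhbb (1.64 to 2.41 against 0.882 to 1.33), Inhbb to Inha and Amhr2 to Amh. How often ratios of other genes do so was not computed.

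Within groups, the subunit genes varied together from mouse to mouse, and Fst did so more closely with Inha than with Inhba and Inhbb. In the deviation of each library from its group mean, in log2 CPM (counts scaled to library size, with TMM), On T library 2 was low for Inhba (-1.51), Inhbb (-1.48), Inha (-1.24), Fst (-1.17), Amh (-0.73), Amhr2 (-0.44) and Foxl2 (-0.39), and high for Fstl3 (0.30). The summed level of 10 granulosa markers was also lowest there, 1193 TPM against 2254 to 2793 TPM in the other On T libraries. The 4 smooth muscle markers summed to 2185 TPM in that library, against 1072 to 1252 TPM in the others, and 5 stroma markers to 955 TPM. The part of cell makeup in these deviations was not tested. Post T library 3 was low for Inhba and Inhbb (-1.22 each) but much less so for Inha (-0.31) and Fst (-0.10), and its granulosa sum, 1451 TPM, was the lowest of Post T (others 1649 to 2214 TPM).

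**Figure D4:**
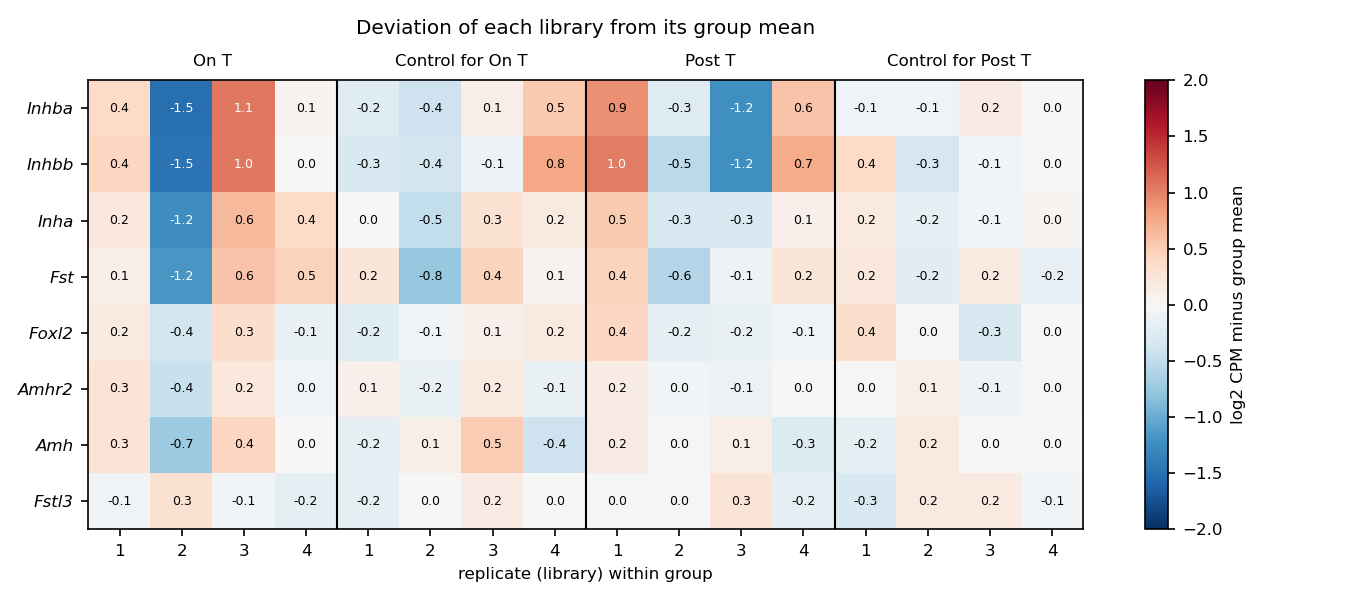
Deviation of each library (columns, replicates 1 to 4 in each group) from its group mean for each gene (rows), in log2 CPM. On T library 2 is low in 7 of the 8 genes, down to -1.51 for Inhba, and Post T library 3 is low for Inhba and Inhbb (-1.22 each).

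Across the 16 libraries these deviations had a Pearson r of 0.96 between Inhba and Inhbb (Spearman's rho 0.92), and of 0.92 when the 2 libraries farthest from the median were left out. Between Inha and Fst r was 0.94 (rho 0.89, and 0.86 without 2 libraries), between Inha and Inhba 0.87 (rho 0.81, and 0.79), and between Amh and Amhr2 0.75 (rho 0.63, and 0.51). Fst gave 0.74 with Inhba (rho 0.71, and 0.67 without 2 libraries) and 0.72 with Inhbb (rho 0.69, and 0.62). Amh with Inha gave 0.57 (rho 0.42) and only 0.14 without 2 libraries. Fstl3 had a negative r with 6 of the other 7 genes, down to -0.61 with Inhbb (rho -0.58, and -0.30 without 2 libraries), and 0.050 with Amh. Values of a library share its depth, its scaling and its mix of cells, so these are descriptions with no p.

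The genes most like each member by this r, among 13640 expressed at 1 CPM or more on average, were as follows. For Inha they were Naglu (0.99, and 0.98 without 2 libraries), the granulosa steroidogenic enzyme gene Hsd17b1 (0.98, and 0.96) and Nap1l5 (0.97, and 0.92). For Inhba they were St3gal4 (0.97), Tm9sf1 (0.96) and Prkar2b (0.95), and Inhbb itself ranked 2 for Inhba when members were counted. For Inhbb they were Gch1 (0.97), Lzts1 (0.94) and Dpf3 (0.93). Fst was most like Nppc (0.96), which encodes the natriuretic peptide that follicle cells use to hold oocytes in meiotic arrest, Naglu (0.94) and Tom1l1 (0.93). Foxl2 was most like Cdca4 (0.92), Gata6 (0.92) and Alyref (0.91), Amh like Trappc12 (0.91), Fam78a (0.89) and Elf3 (0.88), and Amhr2 like Rec8 (0.93), Slc35g2 (0.91) and Clpb (0.89). Fstl3, the gene with the fewest counts, was most like Leng8 (0.90), Evi2b (0.88) and Fam219a (0.88). Without 2 libraries these r lay between 0.78 and 0.98. The genes were picked as the highest of 13640 r over 16 libraries, so the choice itself favours high values. The r without 2 libraries are for the same picked genes and are no separate test.

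Receptors, signal carriers and antagonists that act with the 8 genes were described from a list of 33, of which 31 were tested. Inhbc and Inhbe, encoding the other beta subunits, reached 1 and 2 counts at most and were not tested. In On T, 4 of 31 were higher and 2 lower, where 4.24% and 5.03% of all tested genes were called higher and lower, and the list's median log2 fold change was 0.013. In Post T, 1 was higher and 4 lower, against 7.49% and 4.81% of all tested genes, with a median of 0.085.

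Among the On T calls, Smad6, an inhibitory SMAD of bone morphogenetic protein signalling, averaged 15.5 ± 5.64 TPM against 7.80 ± 1.73 TPM in Control for On T (SD, n = 4 each; log2 1.00, SE 0.27, edgeR adjusted p = 0.0302). Tgfbr3, the betaglycan coreceptor that lets inhibin compete with activin, averaged 49.7 ± 11.4 TPM against 32.8 ± 3.09 TPM (log2 0.60, SE 0.18, edgeR adjusted p = 0.0402). Bambi, a decoy receptor without a kinase, averaged 7.50 ± 1.74 TPM against 5.29 ± 0.672 TPM (log2 0.51, SE 0.15, edgeR adjusted p = 0.0435). Lower were Acvr1, a type I receptor, at 24.9 ± 3.44 TPM against 38.0 ± 6.12 TPM (log2 -0.65, SE 0.18, edgeR adjusted p = 0.0317), and Furin, a proprotein convertase that cleaves ligand precursors, at 42.8 ± 4.42 TPM against 61.0 ± 12.3 TPM (log2 -0.52, SE 0.13, edgeR adjusted p = 0.0149).

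Each of these 5 On T calls was lost in some fits that left out 1 library, while its fold change kept its sign. Smad6 and Furin no longer passed without On T library 1 or Control for On T library 2 or 4 (edgeR adjusted p up to 0.119 and 0.0694). Acvr1 no longer passed without On T library 1 or 4 or Control for On T library 1 or 3 (up to 0.11). Tgfbr3 no longer passed without On T library 1, 2 or 4, Control for On T library 2, 3 or 4, or Control for Post T library 4 (up to 0.12). Bambi lost its call without On T library 1, 2 or 4, Control for On T library 2, 3 or 4, Post T library 2 or 4, or Control for Post T library 2 or 3 (up to 0.14). The list's count of 6 became 1 without On T library 1, 3 without On T library 4, and 2, 3 and 2 without Control for On T libraries 2, 3 and 4, and limma on TPM called 1.

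In Post T ovaries the gene called higher was Acvr1c, encoding the type I receptor ALK7, at 1.23 ± 0.397 TPM against 0.355 ± 0.117 TPM in Control for Post T (SD, n = 4 each; log2 1.86, SE 0.24, edgeR adjusted p = 4.51e-05). In On T it was at 0.473 ± 0.101 TPM against 0.373 ± 0.0544 TPM in Control for On T (log2 0.47, SE 0.24, edgeR adjusted p = 0.272), and the effects differed by 1.39 (edgeR adjusted p = 0.0326), the 1 gene of the list called higher in the difference of effects, with 0 lower. Of all tested genes 2.93% were called higher there and 0.324% lower. Lower in Post T were Pcsk5, a convertase like Furin, at 11.8 ± 2.05 TPM against 20.9 ± 5.56 TPM (log2 -0.84, SE 0.14, edgeR adjusted p = 0.00047), and Furin itself at 41.9 ± 2.08 TPM against 65.4 ± 14.6 TPM (log2 -0.59, SE 0.13, edgeR adjusted p = 0.00381). Smad1 and Smad9, carriers of bone morphogenetic protein signals, were at 18.7 ± 1.02 TPM against 30.1 ± 6.43 TPM (log2 -0.67, SE 0.16, edgeR adjusted p = 0.00875) and 2.86 ± 0.796 TPM against 5.30 ± 1.28 TPM (log2 -0.85, SE 0.21, edgeR adjusted p = 0.0108). All 5 Post T calls passed whichever library was left out.

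**Figure D5:**
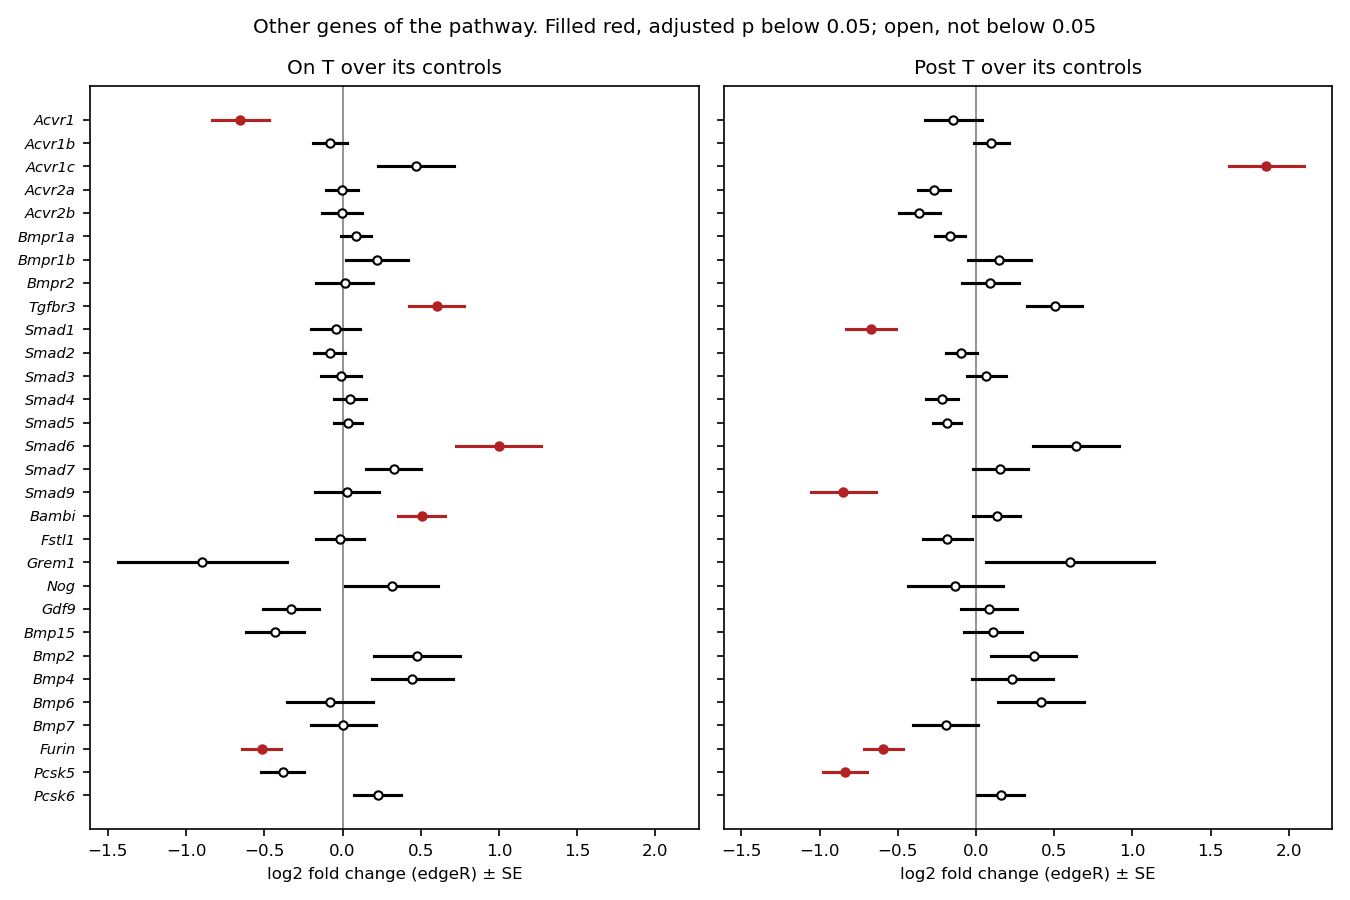
Log2 fold change from edgeR with its SE for tested genes of the pathway list, On T over Control for On T on the left and Post T over Control for Post T on the right; filled red points passed an adjusted p of 0.05. Furin is filled on both sides, and Acvr1c in Post T (1.86) is the largest change.

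Of the receptors and SMADs fixed by name, Acvr2a, Acvr2b, Acvr1b, Bmpr1a, Smad2 and Smad3 did not pass in either comparison in edgeR. Acvr2a and Acvr2b, type II receptors of activin, had log2 fold changes of -0.0026 (SE 0.10) and -0.0051 (SE 0.13) in On T, whose sign turned under other scalings, and of -0.27 (SE 0.10, edgeR adjusted p = 0.109) and -0.36 (SE 0.13, edgeR adjusted p = 0.0857) in Post T. Acvr2b in Post T passed in DESeq2 (-0.37, adjusted p = 0.0343) and in limma (-0.39, adjusted p = 0.0454), and over all alternatives its adjusted p ran from 0.0343 to 0.267. Acvr1b, encoding the type I receptor ALK4, gave -0.080 (SE 0.11) in On T and 0.097 (SE 0.11) in Post T. Bmpr1a, a type I receptor used by anti-Müllerian hormone, gave 0.084 (SE 0.097) and -0.16 (SE 0.097). Smad2 gave -0.083 (SE 0.10) and -0.093 (SE 0.10), and Smad3 gave -0.011 (SE 0.13) and 0.067 (SE 0.13), in On T and Post T. The sign of Smad3 in On T turned under other scalings. Tgfbr3 in Post T was at 44.6 ± 2.83 TPM against 32.8 ± 10.7 TPM in Control for Post T (log2 0.50, SE 0.18, edgeR adjusted p = 0.076), and passed in DESeq2 (adjusted p = 0.0485) and without On T library 3 or Control for Post T library 2 (edgeR adjusted p down to 0.0213).

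Foxl2 belongs to the genes that keep supporting cells ovarian rather than testicular. A list of 14 genes linked to ovarian or testicular supporting cells was made, 13 of them tested. Dmrt1, a testis factor, reached 2 counts at most and was not tested. Sox9, the testis factor that Foxl2 opposes, was at 0.923 ± 0.319 TPM in On T against 1.16 ± 0.335 TPM in Control for On T (SD, n = 4 each; log2 -0.31, SE 0.22, edgeR adjusted p = 0.449). In Post T it was at 0.853 ± 0.133 TPM against 1.38 ± 0.211 TPM in Control for Post T (log2 -0.65, SE 0.22, edgeR adjusted p = 0.0695), and it passed only without On T library 2 (0.0291) among the 16 fits that left out 1 library. It also passed in DESeq2 (adjusted p = 0.0275), with the 8 libraries compared (0.0299) and with the replicate block (0.0492). In On T, 2 genes were higher and 2 lower, and in Post T 2 were higher and 1 lower, with list medians of 0.13 and 0.072. The list mixes genes of both sides, so these counts and medians give no direction between ovarian and testicular fate. Of all tested genes 4.24% were called higher and 5.03% lower in On T, and 7.49% higher and 4.81% lower in Post T.

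Wnt4, a signal that promotes ovarian fate, was at 19.7 ± 1.85 TPM in On T against 52.2 ± 4.76 TPM in Control for On T (log2 -1.40, SE 0.12, edgeR adjusted p = 1.28e-06), and at 29.6 ± 4.26 TPM in Post T against 85.0 ± 12.5 TPM in Control for Post T (log2 -1.48, SE 0.12, edgeR adjusted p = 2.96e-07), and it passed whichever library was left out. Cldn11, a tight junction gene of Sertoli cells, was at 23.3 ± 8.22 TPM in On T against 8.58 ± 2.08 TPM in Control for On T (log2 1.43, SE 0.23, edgeR adjusted p = 0.000899). In Post T it was at 12.5 ± 2.66 TPM against 7.32 ± 1.10 TPM (log2 0.81, SE 0.23, edgeR adjusted p = 0.0299), a call that ended without Post T library 1, 2 or 4 or Control for Post T library 1, 3 or 4 (adjusted p up to 0.0786). Gata1, expressed in Sertoli cells of the mouse testis, was higher in On T, at 11.9 ± 2.25 TPM against 6.51 ± 1.59 TPM (log2 0.86, SE 0.21, edgeR adjusted p = 0.0156), a call that ended without Control for On T library 2 or 4 (up to 0.0593). Runx1, a factor of supporting cells, was lower in On T, at 10.2 ± 1.36 TPM against 17.7 ± 4.98 TPM (log2 -0.74, SE 0.20, edgeR adjusted p = 0.0279), a call that ended without On T library 1, 2 or 3 or Control for On T library 2 or 4 (up to 0.11). Gata4, a granulosa factor, was higher in Post T, at 159 ± 26.1 TPM against 108 ± 28.7 TPM (log2 0.60, SE 0.18, edgeR adjusted p = 0.0397), a call that ended without Post T library 1, 2 or 4 or Control for Post T library 1, 3 or 4 (up to 0.107). Counts of calls in this list became 2 in On T without Control for On T library 2 or 4, and 1 in Post T without Post T library 1 or 4 or Control for Post T library 3 or 4. In Post T, DESeq2 called 5 and limma 1.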

How the data were processed

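RNA was measured in 16 ovary libraries, 1 per mouse, in 4 groups of 4 taken from the sample titles. Per the submitters' processing notes, the reads went through STAR 2.7.8a, RSEM 1.3.3, cutadapt 2.3 and FastQC 0.11.8 (order not stated) on GRCm38. Neither the gene annotation used for counting nor its strand setting is given in the sources used here. The deposited expected counts are the authors' RSEM estimates per gene, not normalised, and 0 of them were other than whole numbers (tolerance 0). The authors' deposited TPM values divide by transcript length and library size, so a shift between isoforms can move them. Library totals ran from 26598055 to 52659637 counts.

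A single edgeR 4.0.16 model (R 4.3.3) with TMM scaling and 1 mean for each group took in all 16 libraries and the 18833 of 55426 genes kept by filterByExpr at a minimum count of 10. Its quasi-likelihood test was called at a Benjamini-Hochberg adjusted p below 0.05. Biological variation had a common coefficient of 0.179. The SE of a fold change is its size over the root of F. Levels and ratios used TPM, and deviations used TMM-scaled log2 CPM (prior count 2). Gene positions came from GENCODE for GRCm38, which held 99.66% of the identifiers, and promoters from RefSeq (GRCm38.p6).

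Members, gene lists, tests and alternatives were chosen with earlier results of these data known. Named were all 8 members, up to 10 called genes per list with the smallest p, 9 genes fixed by name (Acvr2a, Acvr2b, Acvr1b, Bmpr1a, Tgfbr3, Smad2, Smad3, Sox9 and Dmrt1) and the 3 genes most like each member. Of the called genes, 1 is not reported here, though list counts include it. Alternatives were DESeq2 1.42.0, limma 3.58.1 on log2(TPM + 1), scaling by median-of-ratios size factors, testing every gene or those with 1 CPM in 4 libraries, fitting the 8 libraries compared, a replicate block, age as a covariate, CPM for TPM, and fits that each dropped 1 library. On T library 2 was also dropped together with Control for Post T library 1 or Post T library 3, the last pair chosen after seeing the data. The pipeline was tested on simulated data. The labels call the libraries biological replicates.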

Additional observations from a re-analysis of the deposited data

Results flagged for a closer look

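Among 56 groups of 4 levels or ratios, 4 held a library whose gap to its nearest neighbour was large for the range of the group, where chance gives about 1 in 20. Inhbb was at 698 TPM in Control for On T library 4, against 312 to 368 TPM in the other 3 of that group. Fstl3 was at 4.29 TPM in On T library 2, against 3.08 to 3.27 TPM in the others, and still below every control. The ratio of Fst to Inhba plus Inhbb was 0.965 in Post T library 3, against 0.246 to 0.320 in the others. The ratio of Amhr2 to Amh was 0.529 in Control for Post T library 1, against 0.426 to 0.439 in the others. The effect of treatment on Acvr1c differed between Post T and On T by 1.39 on the log2 scale (edgeR adjusted p = 0.0326), the Post T effect being the larger.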

How the results depend on the processing

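Of 824 values of the 8 genes under alternatives, 766 kept their direction and side of the threshold, 20 passed where they had not, 0 lost a call and 38 changed sign, each of these last without a call. The cause of these shifts was not tested. Fstl3 passed in On T under all. Counts of all genes called in On T were 1130 in limma and 1081 to 2071 with 1 library left out (1094 and 1081 without Control for On T library 2 and 4). They were 1753 to 2568 in Post T and, in the difference of effects, 453 to 735, with 999 in DESeq2. Between the controls they were 20 with no filter, 173 in DESeq2, 0 to 9 with 1 library left out and 1 without On T library 2 and Control for Post T library 1. Members called in On T were 1 to 3 with 1 library left out, and 3 without On T library 2 together with Control for Post T library 1 or Post T library 3. Under these 2 removals Amh reached 0.66 (edgeR adjusted p = 0.0301) and 0.65 (0.0414), Amhr2 0.41 (0.0222) and 0.40 (0.0273), and Inhba changed sign to 0.043 and 0.038.

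In Post T, Amhr2 was the 1 member called, with no filter (0.42, adjusted p = 0.047), with the 1 CPM filter (0.43, 0.0315), in DESeq2 (0.40, 0.0297), with 8 libraries (0.40, 0.0145), with the replicate block (0.40, 0.0485) and under both 2-library removals (0.43, 0.0128 and 0.44, 0.0117), and 0 to 1 members were called with 1 library left out. Leaving out 1 library moved the On T values to 0.32 to 0.65 for Amh, 0.19 to 0.40 for Amhr2, -0.011 to 0.46 for Inha, -0.67 to 0.038 for Inhba, -0.36 to 0.38 for Inhbb, -0.072 to 0.38 for Fst and 0.17 to 0.40 for Foxl2. It moved the Post T values to -0.15 to 0.00011 for Amh, 0.37 to 0.46 for Amhr2, 0.21 to 0.51 for Inha, 0.15 to 0.74 for Inhba, -0.64 to -0.0088 for Inhbb, -0.10 to 0.22 for Fst, -0.32 to -0.14 for Fstl3 and -0.065 to 0.22 for Foxl2. The differences of effects moved to 0.00087 to 0.23 for Amhr2, 0.41 to 1.15 for Inhba, -0.36 to -0.073 for Foxl2, -0.069 to 0.42 for Inha, -0.69 to 0.079 for Inhbb and -0.35 to 0.12 for Fst, and the differences of the controls to -0.40 to -0.088 for Amh, -0.21 to -0.099 for Amhr2, -0.70 to -0.22 for Inhbb, -0.33 to 0.011 for Fst and -0.19 to 0.046 for Foxl2. In On T, Inhbb became -0.14 in limma and -0.036 with the replicate block, and in Post T Fst became -0.031 in limma and -0.014 with the replicate block. With age as a covariate, which nearly coincides with the group of controls, the control difference changed sign for Amhr2 (0.14), Inha (0.32), Inhba (0.90), Inhbb (2.11), Fst (0.33) and Foxl2 (0.91). CPM in place of TPM moved no difference between groups in a member's log2 level or log2 ratio by more than the spread between replicates, although the levels and ratios themselves shift, since CPM does not divide by length, and the On T groups then no longer touched in Inhba to Inhbb.

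For the lists, limma called 1 pathway gene in On T, and leaving out 1 library gave 1 to 7 in On T and 5 to 7 in Post T. For supporting cell genes in Post T, DESeq2 called 5 and limma 1, and leaving out 1 library gave 2 to 5 in On T and 1 to 4 in Post T. Near 0 in On T, the sign turned for Acvr2a (0.013 with median-of-ratios scaling, 0.0055 with no filter, 0.0098 with the 1 CPM filter, 0.014 in DESeq2, 0.0092 with 8 libraries), Acvr2b (0.011, 0.0034, 0.0073, 0.012 and 0.0065, and 0.0022 with the replicate block) and Smad3 (0.0054 with median-of-ratios scaling, 0.0018 with the 1 CPM filter, 0.0054 in DESeq2, 0.010 in limma, 3.9e-05 with 8 libraries, 0.0022 with the replicate block, and 0.0039 without On T library 2 and Control for Post T library 1, where in Post T it was -0.010). With 1 library left out these ran in On T from -0.055 to 0.080 for Acvr2a, -0.072 to 0.089 for Acvr2b, -0.088 to 0.11 for Smad3, -0.096 to 0.061 for Smad1 and -0.066 to 0.18 for Smad9, and in Post T from -0.011 to 0.17 for Smad3. Deviations of same-numbered libraries of different groups had r of -0.283 to 0.281 in 24 pairs, 8 of them over 0.1. Libraries of different numbers were not compared in this way, so these r cannot decide whether the numbers pair mice. The labels state no pairing, and the block changed no other call of a member. Depth limits Fstl3 most, with 130 to 343 counts a library.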
